A study of Rattus norvegicus with 6 samples.

Results

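Clock-controlled output genes are a set of 10 genes given by name: Nr1d1, Nr1d2, Dbp, Tef, Hlf, Nfil3, Bhlhe40, Bhlhe41, Usp2 and Aanat. All 10 were among the 28358 genes of the deposited tables, and their rows were taken by symbol. The samples were neuroretinas, the neural layers of the retina, of Goto-Kakizaki rats, males aged 14 months from a non-obese strain with type 2 diabetes, and their mRNA was sequenced. An injection into the vitreous of 5 µL of microspheres, small beads of the polymer PLGA, had been given 2 months earlier. In 3 samples the beads carried 6.2 µg of spironolactone, which blocks the mineralocorticoid receptor, and in the other 3 they were non-loaded, so the injection and the beads were common to both groups. An eye with no injection and a non-diabetic strain were not analysed here. The hour of the day at which retinas were taken is not given in the sources used here. The labels do not tie the samples to separate animals, so p-values here rest on sample-to-sample spread that could be technical.

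Cells keep time with a transcription loop in which CLOCK and BMAL1 (gene Arntl) switch on genes through a DNA element called the E-box, among them their own inhibitors. Output genes pass this rhythm on. REV-ERB alpha and beta (Nr1d1, Nr1d2) repress Arntl. DBP, TEF and HLF activate genes through an element called the D-box, and NFIL3 represses through the same element. BHLHE40 and BHLHE41 (DEC1 and DEC2) compete at E-boxes as repressors. USP2 removes ubiquitin from clock proteins, and AANAT makes the precursor of melatonin. The retina holds a clock of its own, and its photoreceptors make melatonin at night.

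The promoter sequences that carry E-box letters are shown because CLOCK and BMAL1 act through this element. RefSeq windows of 300 bases (250 before to 50 after the start, build GRCr8) were matched for 9 of the 10 genes, all but Hlf. Of these 9 genes, 4 held the E-box CACGTG on either strand in at least 1 window, against 6.42% of 33469 RefSeq windows of that length. That percentage counts windows and not genes. Among 9 core loop genes with a window, 1 held the E-box (Ciart). Nr1d1 has 2 windows, of which the upstream one held the related E'-box CACGTT (4.83% of windows). The stretches below run 5′ to 3′ along the gene with 30 bases on each side, and capitals mark the matched letters. They lie at chr10:84231951-84232016 (minus strand) for the first start of Nr1d1 and chr10:84229610-84229675 (minus) for its second. Those of Tef (chr7:115206599-115206664, plus), Bhlhe40 (chr4:143174200-143174265, plus) and Bhlhe41 (chr4:180569368-180569433, minus) follow. The E'-box of Nr1d1 is on the opposite strand and so reads as its reverse complement.
Nr1d1, first start, E'-box: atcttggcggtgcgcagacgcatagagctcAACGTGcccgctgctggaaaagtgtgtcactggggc
Nr1d1, second start, E-box: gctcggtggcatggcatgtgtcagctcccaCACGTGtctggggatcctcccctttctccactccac
Tef, E-box: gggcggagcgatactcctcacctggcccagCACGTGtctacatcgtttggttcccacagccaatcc
Bhlhe40, E-box: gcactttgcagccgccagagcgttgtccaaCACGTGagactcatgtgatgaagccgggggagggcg
Bhlhe41, E-box: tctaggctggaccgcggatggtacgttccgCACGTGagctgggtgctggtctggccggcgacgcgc

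The REV-ERB and ROR core AGGTCA was found in the windows of Nr1d2 and Usp2, that is in 2 of 9 genes, against 16.2% of all windows. In Nr1d2 it lies in the stretch at chr15:9954817-9954882 (plus strand), shown because this gene encodes a protein that binds such letters.
Nr1d2, REV-ERB/ROR core: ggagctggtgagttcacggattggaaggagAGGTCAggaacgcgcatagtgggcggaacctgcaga
No window of these 9 genes held the D-box TTATGTAA (0.893% of all windows) or its looser form TTANNTAA (5.84%). The REV-ERB/ROR core preceded by a pair of adenines and any 2 bases (1.29%) was also absent, as was the cAMP response element TGACGTCA (1.83%). The shorter TGACG, which is part of that element, was in 3 of the 9 genes (21.2% of all windows): Nr1d2, Nfil3 and Aanat. A thymine, any base and then the last 5 letters of the REV-ERB/ROR core were found in the Aanat window only (11.1% of all windows). The window of Dbp held none of the searched letters. A match describes these letters in this window and no binding was measured.

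**Figure D1:**
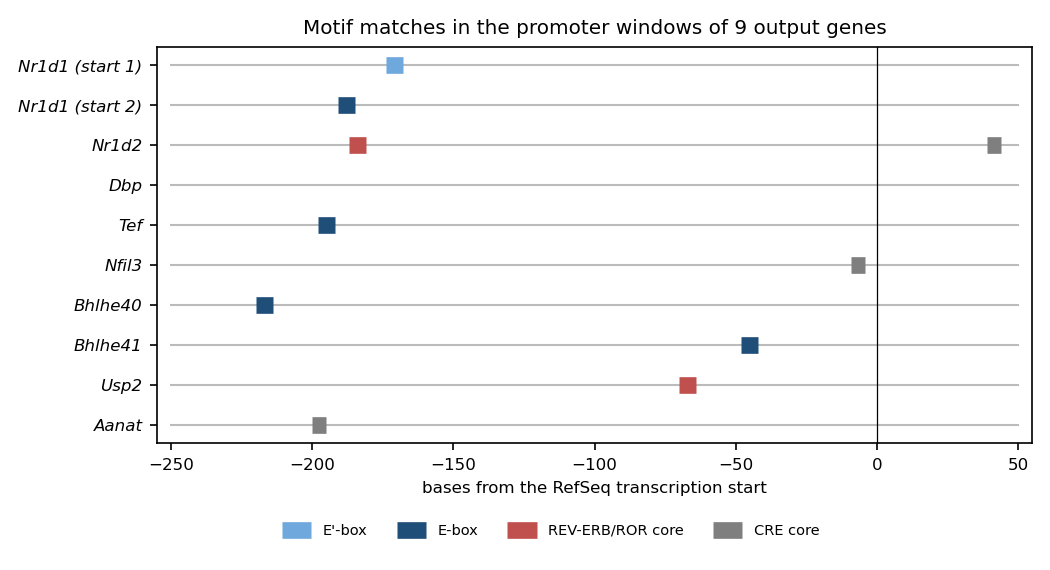
Position of motif matches (coloured blocks, both strands; the single 7-base match in Aanat is not drawn) in the promoter windows of 9 output genes, on an axis of bases from the RefSeq transcription start. Each row is 1 start, so Nr1d1 has 2 rows. E-boxes begin at −191 in Nr1d1, −198 in Tef, −220 in Bhlhe40 and −48 in Bhlhe41, and the row of Dbp is empty.

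Libraries held between 9996198 and 12589466 expected counts, RSEM's estimate of reads per gene. The 10 genes together took 0.141% to 0.15% of each library. Counts were scaled to CPM, counts relative to the library's total after correction by TMM factors, for comparisons of 1 gene between samples. TPM, which divides by transcript length, was used for comparisons between genes. In all, 13242 genes passed a filter on low counts and were tested with edgeR's quasi-likelihood test, and 348 of them (2.63%) passed an adjusted p of 0.05. The retinal identity of the samples was clear from their markers: the rod transducin gene Gnat1 averaged 10068.5 CPM without and 5864 CPM with the drug, and of 6 lens markers none passed the filter. Counts were compared between libraries by a chi-square averaged over genes. By this measure spironolactone replicate 1 differed less from non-loaded replicate 3 (4.72) than from spironolactone replicate 3 (7.12), and least from spironolactone replicate 2 (4.60). Non-loaded replicate 3 in turn differed more from non-loaded replicates 1 (5.61) and 2 (5.04). Where leaving out 1 library ended or made a call, the value without it is given.

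No output gene was called: 0 of the 9 tested members passed an adjusted p of 0.05, against 2.63% of all tested genes. The 9 had adjusted p between 0.204 (Nfil3) and 0.989 (Bhlhe40). At an unadjusted p of 0.05, 2 of the 9 passed, Nfil3 and Bhlhe41, against 15.8% of all tested genes. DESeq2 and limma-voom also called 0 of the 9, with 1 and 2 at an unadjusted p of 0.05. Log2 fold changes (spironolactone minus non-loaded) ran from −0.04 to 0.28 with a median of 0.09, beside −0.0027 for all tested genes. Their median size without sign was 0.09, against 0.11 over all tested genes. Aanat, the remaining member, was below the filter. In bulk tissue, fewer cells of a type and less RNA per cell cannot be told apart.

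**Figure D2:**
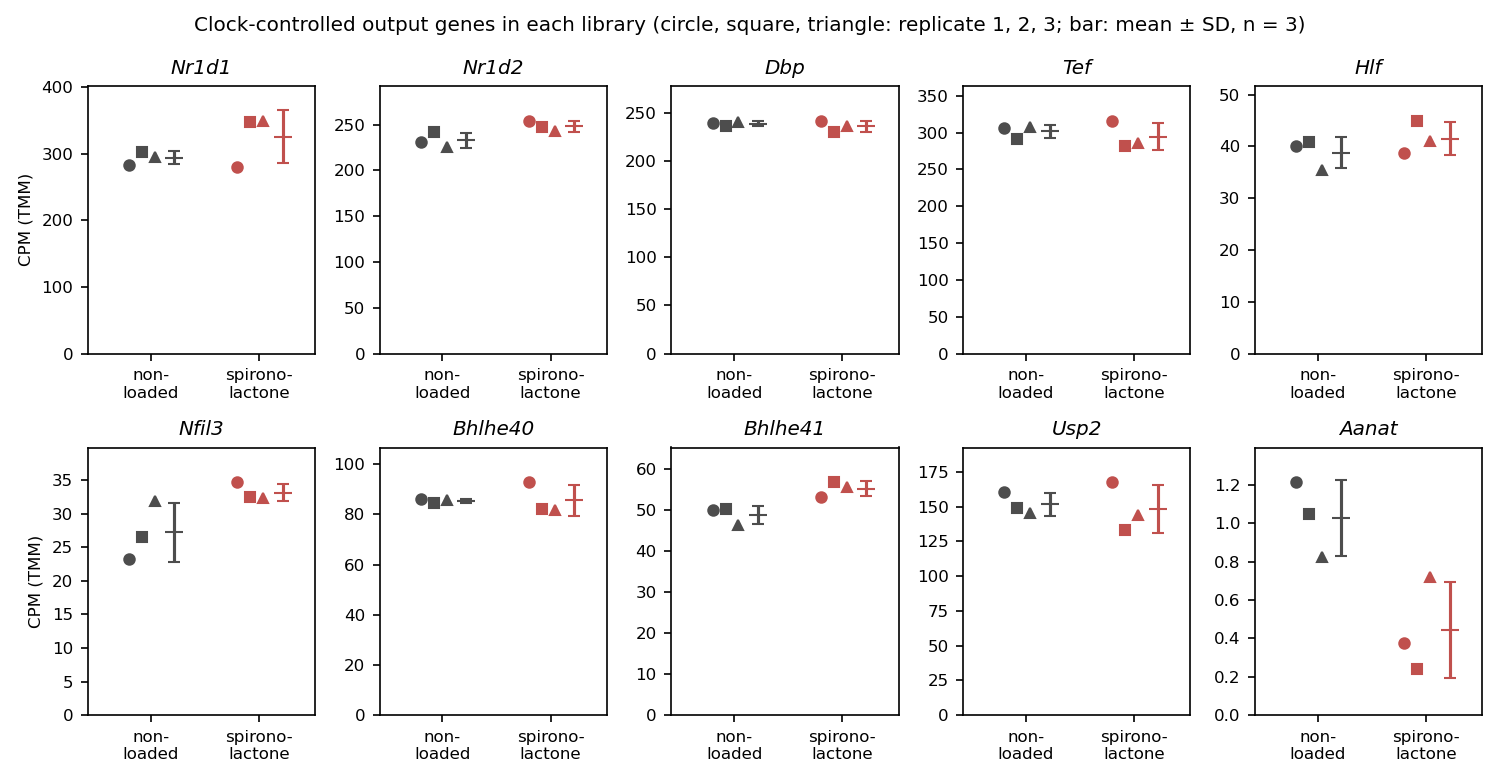
CPM (y axis, from 0) of the 10 output genes in each library, with non-loaded in grey and spironolactone in red. Points are libraries (circle, square and triangle for replicates 1, 2 and 3) and the bar beside them is the mean ± SD of 3. Dbp stays between 230.2 and 242 CPM in all 6 libraries, and the groups of Nr1d2, Nfil3, Bhlhe41 and Aanat do not overlap.

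The REV-ERB genes were measured with 2284 to 4351 counts in each library. Nr1d1 stood at 283, 303 and 294 CPM in the non-loaded libraries and at 279, 347 and 349 CPM in spironolactone replicates 1, 2 and 3. Spironolactone replicate 1 was the lowest of all 6 and the other two of its group were the highest, so the groups overlapped. The means were 293 ± 9.75 and 325 ± 39.8 CPM (SD, n = 3), a log2 fold change of 0.15 ± 0.07 (SE; 95% interval −0.01 to 0.31; edgeR adjusted p = 0.356). Without spironolactone replicate 1, Nr1d1 was called higher (0.25, adjusted p = 0.0262). In that run 621 of 13437 tested genes were called, against 348 of 13242 with all libraries. Nr1d1 was the single member that any left-out library brought past the threshold.

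Nr1d2, the close relative of Nr1d1, stood at 231, 242 and 226 CPM in the non-loaded and 254, 248 and 243 CPM in the spironolactone libraries. All spironolactone values lay above all non-loaded ones, by less than 1 CPM at the nearest pair. The difference was 0.09 ± 0.06 (95% interval −0.03 to 0.21, adjusted p = 0.465). Groups that do not overlap were seen for 3 of the 9 tested members (33.3%) and for 20.9% of all tested genes. In TPM the ratio of Nr1d1 to Nr1d2 was 2.51, 2.48 and 2.66 in the non-loaded libraries and 2.24, 2.75 and 2.92 in the spironolactone libraries. Spironolactone replicate 1 gave the lowest ratio, and it had the highest Nr1d2 of the 6 libraries in TPM.

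Among the D-box activators, Dbp was the steadiest of the 10 genes. Its CPM was 240.1, 237 and 241 in the non-loaded libraries and 242, 230.2 and 237 in the spironolactone libraries. The highest library exceeded the lowest by 1.05-fold, and the groups overlapped fully. The spread within groups (a coefficient of variation of 0.93% and 2.51%) lay on either side of that given by counting error alone (1.93%). The log2 fold change was −0.02 ± 0.05 with a 95% interval of −0.13 to 0.10 (adjusted p = 0.922), which leaves room for a change of at most 1.10-fold in either direction. Its sign turned to 0.03 in log2(TPM + 1), and to 0.01 with effective lengths as offset. The deposited length of Dbp, a mean over its 3 transcripts, was shorter in spironolactone replicates 2 (1649 bases) and 3 (1646 bases) than in the others (1686 to 1702 bases).

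Tef measured 307, 292 and 308 CPM in the non-loaded and 316, 282 and 286 CPM in the spironolactone libraries. Spironolactone replicate 1 was the highest library and the other two of its group were the lowest, the reverse of their places for Nr1d1. The means did not differ beyond this spread (−0.04 ± 0.06, 95% interval −0.16 to 0.09, adjusted p = 0.832; −0.09 without spironolactone replicate 1). Hlf, with 397 to 563 counts, measured 40.2, 40.8 and 35.4 CPM in the non-loaded and 38.6, 44.9 and 41.0 CPM in the spironolactone libraries. Here non-loaded replicate 3 was lowest and spironolactone replicate 2 highest (0.10 ± 0.09, 95% interval −0.09 to 0.29, adjusted p = 0.642). The Hlf value was 0.03 without the first of these and 0.04 without the second.

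Nfil3, the repressor at the same element, had the largest difference of the tested members. It measured 23.3, 26.6 and 31.9 CPM in the non-loaded libraries and 34.7, 32.6 and 32.3 CPM in the spironolactone libraries. The groups did not overlap, but non-loaded replicate 3 lay within 1 CPM of the nearest spironolactone library. The spread was within the non-loaded group, whose coefficient of variation was 16.0% against 3.96% with spironolactone. The mean went from 27.3 ± 4.36 to 33.2 ± 1.31 CPM, a log2 fold change of 0.28 ± 0.11 (95% interval 0.05 to 0.50, unadjusted p = 0.0185, adjusted p = 0.204). It ranked 1201st of 13242 genes by p. Without non-loaded replicate 3 the adjusted p was 0.0638, the lowest over its 20 alternatives, and the highest was 0.9999.

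The mRNA balance between the D-box activators and their repressor was described by the summed TPM of Dbp, Tef and Hlf over the TPM of Nfil3. It was 22.3, 19.4 and 15.9 in the non-loaded libraries and 15.0, 15.8 and 16.0 in the spironolactone libraries. Non-loaded replicate 3 lay inside the range of the spironolactone group, so the groups overlapped. The activator mRNA, summed over its genes, exceeded that of the repressor in all 6 libraries. Protein and binding at the D-box were not measured. Nfil3 varied 1.49-fold over the libraries against 1.05-fold for Dbp and 1.12-fold for Tef in CPM.

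**Figure D3:**
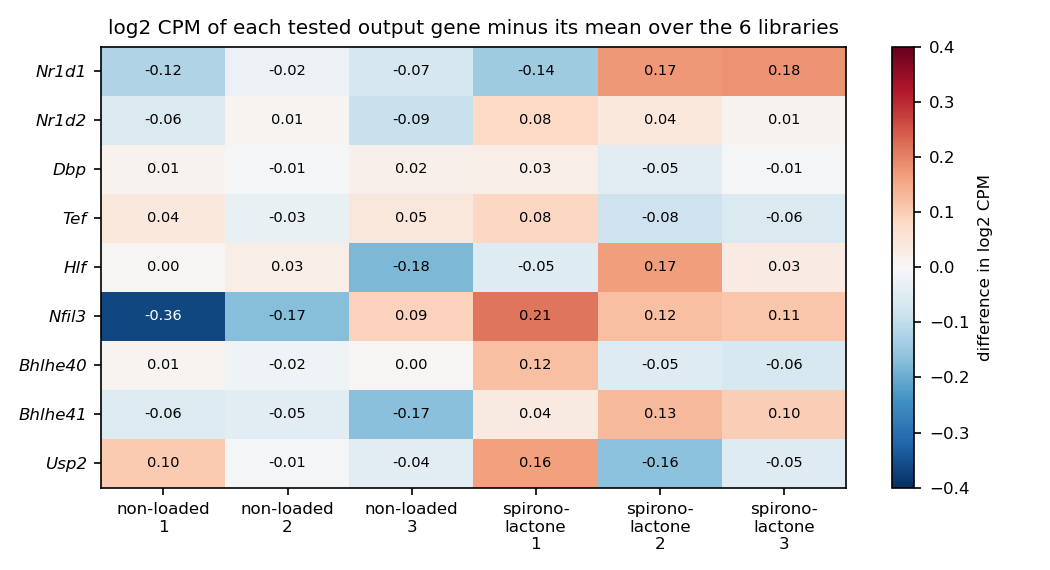
Difference of log2 CPM from the gene's mean over all 6 libraries (colour and printed value), for the 9 tested output genes in rows and the libraries in columns. Nfil3 ranges from −0.36 to 0.21, and spironolactone replicate 1 differs in sign from replicates 2 and 3 of its group for Nr1d1, Dbp, Tef, Hlf, Bhlhe40 and Usp2.

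Neither E-box repressor was called. Bhlhe40 measured 86.1, 84.3 and 85.7 CPM in the non-loaded and 92.8, 82.3 and 81.7 CPM in the spironolactone libraries. Its spironolactone values lay on both sides of the narrow non-loaded range, with replicate 1 above it and replicates 2 and 3 below (0.00 ± 0.07, 95% interval −0.13 to 0.14, adjusted p = 0.989). Bhlhe41 measured 49.98, 50.3 and 46.3 CPM in the non-loaded and 53.3, 56.8 and 55.6 CPM in the spironolactone libraries. Every spironolactone library exceeded every non-loaded one. The difference was 0.18 ± 0.07 (95% interval 0.02 to 0.34, unadjusted p = 0.0286, adjusted p = 0.251) and did not pass. Bhlhe40 was 0.803, 0.781 and 0.864 times Bhlhe41 in TPM in the non-loaded libraries and 0.811, 0.678 and 0.686 times in the spironolactone libraries. Those ranges overlapped.

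Usp2, the deubiquitinase gene, measured 161, 149 and 145 CPM in the non-loaded and 167, 133 and 144 CPM in the spironolactone libraries. Spironolactone replicates 1 and 2 were the highest and the lowest of the 6 (−0.03 ± 0.07, 95% interval −0.19 to 0.13, adjusted p = 0.898). Spironolactone replicate 1 was the highest library for 6 of the 10 genes (Nr1d2, Dbp, Tef, Nfil3, Bhlhe40 and Usp2) and the lowest for Nr1d1. The deposited length of Usp2, a mean over 2 transcripts, lay between 1692 and 1847 bases, the widest range in proportion among the 5 members with several transcripts. The ranges overlapped between the groups (1692 to 1847 bases non-loaded, 1769 to 1824 bases spironolactone). For Nr1d1 this length stayed within 1 base of 2338 in every library.

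**Figure D4:**
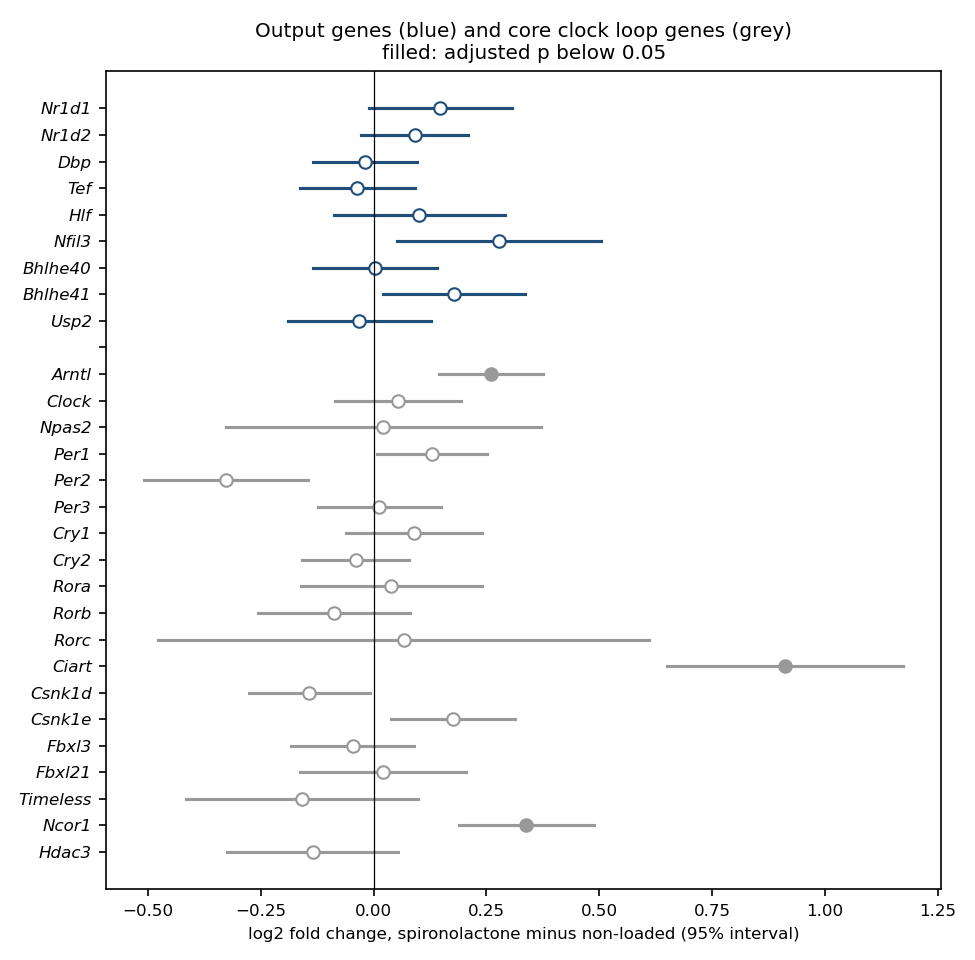
Log2 fold change (x axis, spironolactone minus non-loaded) with its 95% interval for the 9 tested output genes (blue) and the 19 core clock loop genes (grey). Filled points passed an adjusted p of 0.05. No blue point is filled, while Arntl, Ciart and Ncor1 are filled at 0.26, 0.91 and 0.34.

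Aanat, the melatonin precursor enzyme gene, was close to the limit of detection. Its expected counts were 12, 12 and 10 in the non-loaded and 4, 3 and 8 in the spironolactone libraries. The exact Poisson 95% intervals of single counts, which cover counting error only, were 6.20 to 21.0 for a count of 12 and 0.619 to 8.77 for a count of 3. In CPM the values were 1.21, 1.05 and 0.822 against 0.373, 0.239 and 0.723, and every spironolactone library lay below every non-loaded one. Groups that do not overlap were seen for 20.9% of tested genes. The summed counts were 34 and 15, a rate ratio of 0.431 (exact 95% interval 0.218 to 0.812, counting error only), which compares these libraries and not the treatments. An exact two-sided permutation test of log2(CPM + 0.5) over the 6 libraries gave p = 0.1, the smallest that 3 against 3 can give. Tested without the filter, edgeR gave an adjusted p of 0.41.

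Other genes of melatonin synthesis, its cAMP control and its receptors showed no call: 0 of 10 tested members of a list of 13, with a median log2 fold change of −0.10. Of all tested genes 2.63% were called, so 0 calls among so few genes is no evidence of no change. The 3 with the smallest p were Ywhaz, whose 14-3-3 protein stabilises AANAT (−0.09 ± 0.05, adjusted p = 0.453), Creb1 (0.18 ± 0.11, adjusted p = 0.454) and Tph2 (−0.32 ± 0.27, adjusted p = 0.618). Asmt, which encodes the last enzyme of the pathway, measured 13.8 ± 0.98 and 12.8 ± 1.70 CPM (adjusted p = 0.746). The melatonin receptor gene Mtnr1a had 0 counts in all 6 libraries and Mtnr1b at most 3. Photoreceptors are a site of AANAT in the retina. Of 8 rod markers 3 were called lower and 0 higher (median −0.16). Of all 13242 tested genes 2.63% were called in either direction, and 101 were called lower. The rod list was chosen with earlier results of these data known. With 1 library left out, the count of rod markers called lower was 1 when non-loaded replicate 1 was omitted, 4 when spironolactone replicate 1 was, and 2 otherwise. Gnat1 had a log2 fold change of −0.78 ± 0.11 (edgeR adjusted p = 0.000705) and Nr2e3, a rod transcription factor gene, one of −0.40 ± 0.09 (adjusted p = 0.0232). Nr2e3 stayed past the threshold without spironolactone replicate 1 (adjusted p = 0.000921) and lost its call without any other library (adjusted p of 0.0557 to 0.124). Pde6a (−0.08 ± 0.06), Pde6b (−0.10 ± 0.06) and Cnga1 (−0.10 ± 0.06), which encode parts of the phototransduction cascade, were not called, and neither was Sag, the rod arrestin gene, at 3383 and 3577 CPM (0.08 ± 0.06). These 4 were named after their values were seen. Of 6 cone markers 0 were called (median −0.17), with summed CPM of 208 to 244 and 185 to 218. Their part in the Aanat values was not tested. The pineal gland is the other main site of the enzyme, and 0 of 4 genes listed as pineal markers were called (median −0.12). All 4 passed the filter in these retina samples, so they do not single out pineal tissue.

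Levels per length placed Dbp first, at 273 to 294 TPM over the 6 libraries, and Nr1d1 second at 236 to 291 TPM. These neighbours overlapped, with Dbp above Nr1d1 in 4 of 6 libraries. Usp2 (144 to 195 TPM) and Tef (126 to 148 TPM) came next. Their ranges also overlapped, although Usp2 exceeded Tef within each of the 6 libraries. Hlf (89.9 to 110.2 TPM), Nr1d2 (93.9 to 107 TPM) and Bhlhe41 (82.9 to 98.4 TPM) formed a chain of overlapping ranges, and Hlf was above Nr1d2 in 4 of 6 libraries. Bhlhe40 (66.7 to 78.5 TPM), Nfil3 (23.4 to 36.2 TPM) and Aanat (0.37 to 1.91 TPM) each lay apart from their neighbours. By mean TPM, Dbp exceeded 96.8% of tested genes and Nfil3 56.0%. The order of Hlf rests on a short model of 888 bases, the shortest among the members. At a given count a short length raises TPM, and whether this model is complete was not tested.

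**Figure D5:**
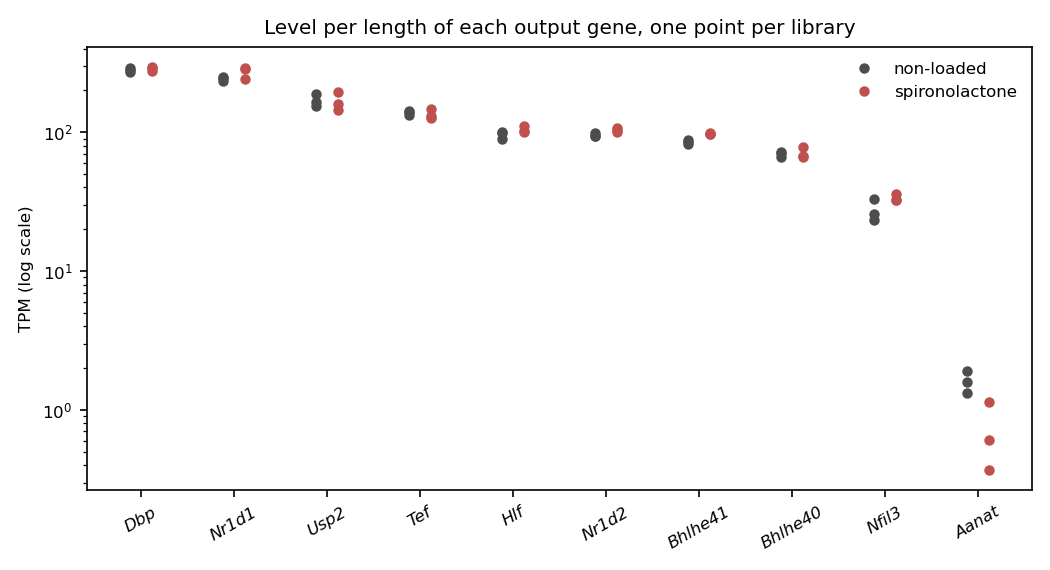
TPM on a log scale for the 10 output genes, ordered by mean level, with 1 point per library (non-loaded grey, spironolactone red). Levels span from 294 TPM (Dbp, highest library) to 0.37 TPM (Aanat, lowest library).

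The core loop that drives the output genes held 3 calls among 19 tested members, all higher (median 0.02), where 2.63% of all tested genes were called. This list was chosen with earlier results of these data known, so its share is a description only. Ciart, a repressor of CLOCK and BMAL1, rose from 16.1 ± 1.84 to 30.2 ± 4.51 CPM (SD, n = 3; 0.91 ± 0.12, adjusted p = 0.000407). Arntl rose from 243 ± 5.94 to 291 ± 4.64 CPM (0.26 ± 0.05, adjusted p = 0.0152), and Ncor1, a corepressor that REV-ERB proteins recruit, from 459 ± 8.42 to 580.1 ± 67.5 CPM (0.34 ± 0.07, adjusted p = 0.0153). Ciart was called with each library left out in turn. Arntl had adjusted p of 0.0877, 0.0803 and 0.0856, above the threshold, when non-loaded replicate 1, non-loaded replicate 2 and spironolactone replicate 2 were each left out. Ncor1 lost its call without the same libraries (0.0613, 0.0658 and 0.0694) and without spironolactone replicate 3 (0.0646). Per2, named after its value was seen, measured 34.0 ± 0.84 and 27.1 ± 0.85 CPM (−0.33 ± 0.09, adjusted p = 0.0525). Whether these genes differ from the output genes in their response was not tested.

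REV-ERB alpha and its target were set side by side as the ratio of Nr1d1 to Arntl in TPM. The ratio was 1.54, 1.62 and 1.52 in the non-loaded libraries and 1.22, 1.56 and 1.56 in the spironolactone libraries. Spironolactone replicate 1 alone lay outside the range of 1.52 to 1.62 held by the other libraries. Arntl itself was higher in all 3 spironolactone libraries (198, 184 and 187 TPM) than in the non-loaded ones (153, 151 and 164 TPM).

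Other transcripts known to cycle in many tissues gave 2 calls among 17 tested members, both higher (median −0.02, where 2.63% of all tested genes were called). This list and that of corticoid genes below were also chosen with earlier results known, so their shares are descriptions only. Klf9, a transcription factor gene that corticoids also induce, rose by 0.35 ± 0.06 (adjusted p = 0.00315). Gpt2, which encodes a mitochondrial alanine transaminase, rose from 4.01 ± 1.17 to 12.2 ± 2.37 CPM (1.59 ± 0.21, adjusted p = 0.000352). Rbm3, a cold-inducible RNA-binding protein gene, had the next smallest p (0.18 ± 0.07, adjusted p = 0.172). Among corticoid receptors and induced genes 1 of 9 tested members was called, beside 2.63% of all tested genes: Fkbp5, a co-chaperone of these receptors, was higher by 0.41 ± 0.07 (adjusted p = 0.00362), the median was −0.02, and Dusp1 (−0.15 ± 0.10, adjusted p = 0.499) and Mt2A (0.30 ± 0.21, adjusted p = 0.517) followed by p. The calls of Klf9, Gpt2 and Fkbp5 held with each library left out. With DESeq2 the list of cycling transcripts held 1 call, that of Klf9 (adjusted p = 3.94e-05), and Gpt2 was not called.

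Markers of other cells gave no call, where 2.63% of all tested genes were called. Counts were 0 of 6 for bipolar (median 0.06), amacrine and horizontal (−0.004), ganglion (−0.05) and Müller cells (−0.07). They were 0 of 5 for microglia (−0.18), 0 of 3 for endothelium (−0.19) and 0 of 5 for pigment epithelium (−0.51). With lists this short, 0 calls is no evidence of no change. For all but the bipolar list a defining gene is given: Gad1 (408 and 387 CPM, non-loaded and spironolactone), Nefl (430.4 and 410.2), Glul (3568 and 3659), Csf1r (39.3 and 38.3), Cldn5 (36.6 and 30.5) and Rpe65 (15.3 and 10.1). Each was detected in both groups. Glul was the only 1 of the 6 Müller genes with a log2 fold change above 0 (0.04), so its direction is not that of its list. The summed CPM of the pigment epithelium list was 95.6 to 123 in the non-loaded and 46.5 to 109.6 in the spironolactone libraries. Its part in the values of the output genes was not tested.

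Genes with the most similar profile to a member were sought by Pearson's r of log2 CPM over the 6 libraries, as a description among 10951 genes. For Dbp they were Plcg1, Kirrel2 and Dip2c (all 0.98), for Nr1d1 Rab3a (0.99), Smc2 and Fgf13 (both 0.98). For Nfil3 they were Rab28, Mthfd2 and Vmp1 (all 0.99) and for Bhlhe40 Smim8, Vps4b and Gtpbp8 (all 0.99). Of these 12, Mthfd2, which encodes a mitochondrial enzyme of folate metabolism, was called (0.71, adjusted p = 0.0243). It lost that call without non-loaded replicate 1 (adjusted p = 0.0989) or 2 (0.11) and without spironolactone replicate 2 (0.138) or 3 (0.0649), and with DESeq2 (0.212). Values above 0.9 were reached by 68 genes for Dbp (0.621%), 139 for Nr1d1 (1.27%), 202 for Nfil3 (1.84%) and 73 for Bhlhe40 (0.667%). With only 6 libraries, such values were thus not confined to the genes named.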

How the data were processed

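The authors deposited 1 RSEM gene table per sample with unnormalised expected counts, TPM, FPKM (not used here in any test) and lengths (other values, in bases), per the file headers. Per the submitters' processing notes the tools were RSEM 1.2.28, STAR 2.5.3a, Trimmomatic and FastQC, with the build rn6, and no roles are stated. Per the labels' protocols, libraries came from a stranded mRNA kit. The strand setting of the counting is not given in the sources used here, so overlapping antisense genes may share reads.

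Expected counts were rounded, filtered with filterByExpr by group and tested with edgeR 4.0.16 in R 4.3.3 (TMM, glmQLFTest, two-sided, Benjamini-Hochberg over 13242 genes, threshold 0.05). SE is the log2 fold change over the square root of F, and intervals use the moderated degrees of freedom. No batch was labelled. On simulated counts with 200 changed genes, 43.2% of 1.25-fold and 85.6% of 1.5-fold changes were recovered among 13152 genes. Of the calls 7.12% were false, and 94.7% of the changed genes' intervals held the true value. The changed genes were drawn from those above a minimum level, and counts were drawn independently with the fitted spread. These shares therefore do not cover weakly expressed genes or differences shared across a whole library. Alternatives used other scalings, DESeq2 1.42.0, limma 3.58.1, filters, TPM, a threshold of 0.1, the title number and each library left out.

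Members, lists and motifs were chosen with earlier results of these data known. Named genes are all members, the 3 most similar genes of 4 members, and in each list the called genes and the 3 smallest by p, with 1 defining gene for most marker lists. Asmt and the receptor genes were named outside this rule. Promoters are RefSeq windows of GRCr8, another build than that of the tables. Values of some marker genes are not reported here.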

Additional observations from a re-analysis of the deposited data

How the results depend on the processing

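The count of 348 genes called over the whole table moved to 602 without a filter, 593 at an adjusted p of 0.1, 100 on log2(TPM + 1), 95 on log2(TPM + 0.1), and 111 to 621 with 1 library left out (124 and 157 without non-loaded replicates 1 and 2, and 621, 111 and 146 without spironolactone replicates 1, 2 and 3). On log2(TPM + 1) the split was 82 higher and 18 lower, against 247 and 101. With the sample title's number as a covariate it was 0 (562 at an unadjusted p of 0.05). That number follows the group (r = 0.953), so number and group cannot be told apart. The output genes kept 0 calls in every alternative except 1: without spironolactone replicate 1, Nr1d1 was called higher, so that the count of members higher ran from 0 to 1 over the left-out libraries. Signs of members turned only near 0 or under the title-number covariate, without a call. The runs on named genes that are not members were chosen after seeing the data: in the core loop 1 gene was called on both TPM scales (Ciart) and 0 with the title number, and Per2 passed with upper quartile factors (adjusted p = 0.0499), sample weights (0.0421), robust shrinkage (0.0468) and no filter (0.0461). With robust shrinkage Gnat1, Nr2e3 and Mthfd2 lost their calls (adjusted p of 0.162, 0.143 and 0.37). With the title number as covariate signs turned to −0.45 (Nr1d1), 0.0447 (Dbp), 0.20 (Tef) and 0.51 (Usp2), and among other named genes to −0.071 (Ncor1), 0.226 (Nr2e3) and −0.0624 (Mthfd2). Of those that kept their sign, Gpt2 went from 1.59 to 0.039, Ciart from 0.91 to 0.16, Gnat1 from −0.78 to −0.25 and Per2 from −0.33 to −0.26. Klf9 went from 0.35 to 0.57 and Fkbp5 from 0.41 to 0.63, and Arntl stayed at 0.26. Dbp was 0.0106 with effective lengths as offset and 0.0285 on both TPM scales, and ranged from −0.0359 to 0.000355 over the left-out libraries. Bhlhe40 was −0.00417 with upper quartile factors and −0.00473 with sample weights, and −0.0572 to 0.0318 over the left-out libraries. Usp2 ran from −0.126 to 0.0403 there. The cause was not tested. Nr1d2, Hlf, Nfil3 and Bhlhe41 stayed above 0 in all 20 alternatives, and Aanat (−1.21 as the log2 ratio of mean CPM) stayed between −1.75 and −0.91 in 11. Depth limits Aanat, with at most 12 counts in a library. No paired analysis was possible because the labels give no number shared by the groups.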
